A study of Mus musculus with 8 samples.

Results

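The genes described here encode the machinery that copies DNA: 36 named genes, taken by symbol from a count table of 53465 Ensembl genes. All 36 were found and all 36 passed the filter on low counts, with between 123 and 31802 reads per gene and library. Their RNA was read from polyA libraries of Ba/F3, a mouse line described as immortalised pro-B cells of C3H background. One group was 5 libraries of Ba/F3 cells transformed with U2AF35(S34F), a mutant form of the small subunit of the splicing factor that reads the 3' splice site (replicates 4, 5, 6, 7 and 8). It was set against 3 libraries of parental Ba/F3 cells with wild-type U2AF35 (replicates 1, 2 and 3). The sources used here do not say which promoter drove U2AF35(S34F), whether libraries came from separate clones or cultures, or whether interleukin-3 was in the medium. P-values therefore measure the spread between these libraries, which may be technical.

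DNA replication is prepared in G1, when Cdc6 and Cdt1 load the ring of Mcm2 to Mcm7 proteins onto origins, and fires in S phase, when Cdc45 and the GINS complex join the ring to form the active helicase. Polymerases then work behind the clamp protein Pcna, nucleotide enzymes supply the building blocks, and histone chaperones rebuild chromatin. Most of these genes are transcribed in a wave at the G1/S boundary under E2F transcription factors, and cyclin E with its kinase drives entry into that wave. In a growing cell line their RNA is therefore plentiful, and its level in a bulk sample depends on how many cells are near S phase as well as on RNA per cell. Those contributions cannot be told apart here.

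With all 8 libraries edgeR called no replication gene, and DESeq2 called Dut and Cdc6. At an edgeR adjusted p under 0.05, 0 of the 36 genes were lower and 0 higher in transformed cells, where 3.01% of all 17733 genes tested were called (2.1% lower and 0.908% higher). The fitted log2 fold changes, transformed over parental, ran from -0.52 in Rfc2 to 0.24 in Cdc6. Of the 36 genes, 28 had a negative sign, with a median of -0.12, against 47.7% negative and a median of 0.02 over all genes tested. Without transformed 7, 22 were negative, with a median of -0.08, and without transformed 4, 32 were, with a median of -0.16. With all libraries there were 6 genes at an unadjusted edgeR p under 0.05. Of these, Dut, Gins2, Hells, Rfc2 and Mcm4 were lower and Cdc6 higher, where 22.2% of all genes were at that level (11.6% lower and 10.6% higher). The 2 that DESeq2 called were among them, Dut as lower (adjusted p = 0.00713) and Cdc6 as higher (adjusted p = 0.0239), where it called 5.67% of all genes lower and 4.81% higher. Limma-voom called 0 of the 36 genes and 3.24% of all genes. The 95% intervals lay within a 1.5-fold difference in either direction for 29 of the 36 genes. For Mcm4, Mcm7, Gins2, Pcna, Rfc2, Chaf1b and Ung the interval reached a 1.5-fold lower level, and for Ung a 1.5-fold higher level too.

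**Figure D1:**
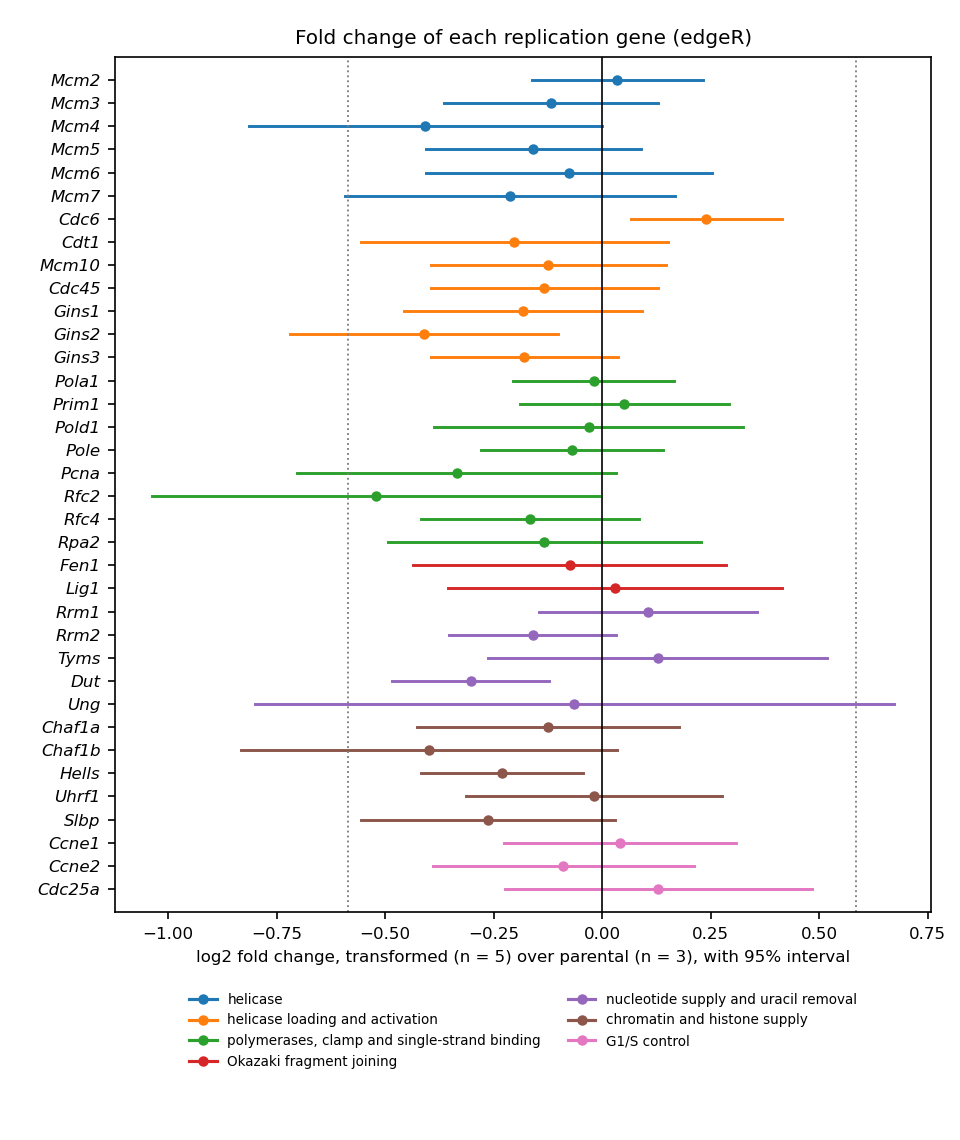
Log2 fold change of each of the 36 genes, transformed (n = 5 libraries) over parental (n = 3), with its 95% interval from edgeR (horizontal axis). Colours mark roles and dotted lines mark a 1.5-fold difference. Most points lie left of 0, between -0.52 (Rfc2) and 0.24 (Cdc6), and most intervals cross 0.

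The transformed libraries differed among themselves. Relative to the parental mean, the 36 genes averaged 0.03 in transformed 4, -0.08 in transformed 5, -0.12 in transformed 6, -0.39 in transformed 7 and -0.12 in transformed 8 on the log2 scale, and 0.0011, 0.0032 and -0.0043 in parental 1, 2 and 3. Transformed 7 was the lowest of the 5 transformed libraries for 24 of the 36 genes (66.7%), while it was lowest for 32.4% of all genes tested. Transformed 4 was the highest of the 5 for 23 genes (63.9%), and highest for 30.2% of all genes tested. It lay above all 3 parental libraries for 17 of the 36 genes (47.2%), and for 34.8% of all genes tested. Transformed 7 lay below all 3 for 27 of the 36 (75.0%), and for 41.2% of all genes tested. The median coefficient of variation of the 36 genes was 14.0% in transformed cells and 5.66% in parental cells, and it was larger in transformed cells for 33 of them. Genes of the same range of levels had medians of 14.4% in transformed and 7.03% in parental cells.

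**Figure D2:**
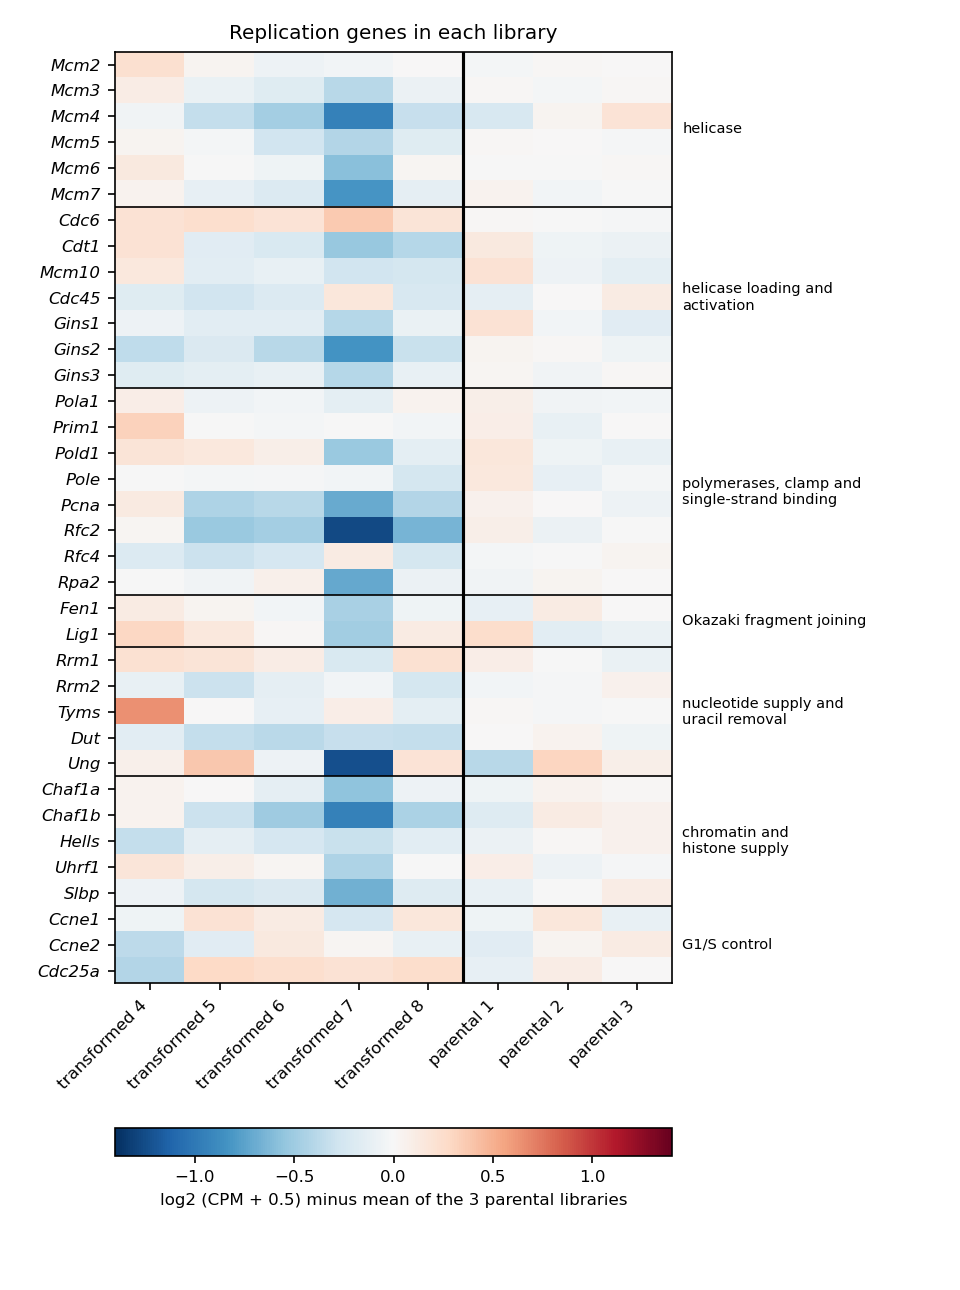
Level of each of the 36 genes (rows, by role) in each library (columns), as log2 (CPM + 0.5) minus the mean of the 3 parental libraries, with the 5 transformed libraries left of the line. Transformed 7 is bluest for most rows, down to -1.26 for Rfc2, while its Cdc6, Cdc25a, Cdc45, Rfc4, Tyms and Ccne2 are above the parental mean. Transformed 4 is near or above the parental mean in most rows.

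The shallowest library, transformed 7, held 36122062 counted reads and the deepest, parental 1, held 50305573, and mitochondrial genes held between 2.60% and 3.12% of a library. Every pair of libraries differed by more than counting noise (chi-square per degree of freedom of 18.0 or more). The gene that encodes U2AF35, U2af1, had 131 ± 24.4 CPM in transformed cells (SD, n = 5) and 91.7 ± 6.47 CPM in parental cells (SD, n = 3), with edgeR adjusted p = 0.108. U2af1 had 92.0 CPM in transformed 7, inside the parental range of 85.3 to 98.2 CPM, and 128 to 157 CPM in the other transformed libraries. Its counts cannot separate an introduced copy from the endogenous gene. Of 12 markers of pro-B cells only Cd79a and Cd79b passed the low-count filter, and the other 10, among them Pax5 and Ebf1, stayed under 1 CPM in every library. The 12 markers summed to 54.3 to 77.7 CPM in transformed and 63.3 to 76.0 CPM in parental libraries. Summed mast cell and basophil markers ran from 27.4 to 402 CPM in transformed and from 108 to 161 CPM in parental libraries, with the top in transformed 4 and with Fcer1a at 0. Macrophage markers ran from 56.6 to 413 CPM in transformed and from 241 to 343 CPM in parental libraries, with the lowest sum in transformed 4, the highest in transformed 7, and C1qa, C1qc and Marco at 0. That sum was mostly 1 gene, Adgre1 (48.4 to 404 CPM in transformed, 230.1 to 332 CPM in parental libraries), and 6 of the 8 markers stayed under 1 CPM in every library. Erythroid markers summed to at most 50.9 CPM in transformed and at least 51.5 CPM in parental libraries, with Slc4a1 at 0. Most of that sum was Klf1 and Epor, with means of 18.8 and 10.0 CPM in transformed and 43.9 and 15.8 CPM in parental cells. Of the 6 erythroid markers tested, 4 had negative and 2 positive signs, and edgeR called 0. T cell markers summed to 1.19 to 4.17 CPM in transformed and 0.799 to 1.64 CPM in parental libraries with Cd8a at 0, and fibroblast markers summed to at most 0.424 CPM in both groups. The part of these genes in the replication results was not tested.

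Levels per exon length gave an order among the genes. In CPM per kilobase of annotated exon, the top of the list in transformed cells was Mcm3 at 139, Pcna at 132, Mcm6 at 119, Rrm2 at 107 and Uhrf1 at 105, and the same genes stood at 151, 166, 125, 119 and 107 in parental cells. Within the ring, Mcm5 had 103 in transformed and 115 in parental cells on this scale, Mcm4 73.5 and 97.5, Mcm7 63.0 and 73.0, and Mcm2 42.9 and 41.9. The ring holds 1 copy of each of these proteins, and their RNA levels per length were unequal in both groups. That order depends on the length used, which counts every annotated exon base of a gene, 6956 for Mcm2 and 3589 for Mcm4. In plain CPM Mcm2 and Mcm4 had means of 298.5 and 263.9 in transformed cells, and 291.5 and 349.9 in parental cells. Which transcripts were expressed was not tested. At the low end were Ccne2 (4.82 in transformed, 5.12 in parental), Ung (3.53 and 3.70) and Fen1 (1.96 and 2.07). Fen1 encodes the flap nuclease of lagging-strand synthesis, and exons of Tmem258 and Gm10143 cover 84.2% of its annotated exon bases. Gse1 exons cover 67.3% of Gins2, and Ubxn6 exons 52.5% of Chaf1a. Smaller shares were covered in other genes, among them 17.4% of Ccne2, 15.1% of Rfc2, 12.7% of Rfc4 and 12.6% of Mcm7. How reads in such shared stretches were assigned was not stated, so the levels of all these genes are uncertain. Of the 50-base words in Mcm7 transcripts 23.3% also occur in other genes, chiefly Gm5487, as do 19.1% of those of Pcna, in Pcna-ps2, and 15.4% of those of Uhrf1, in Gm5648 and Gm15953.

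**Figure D3:**
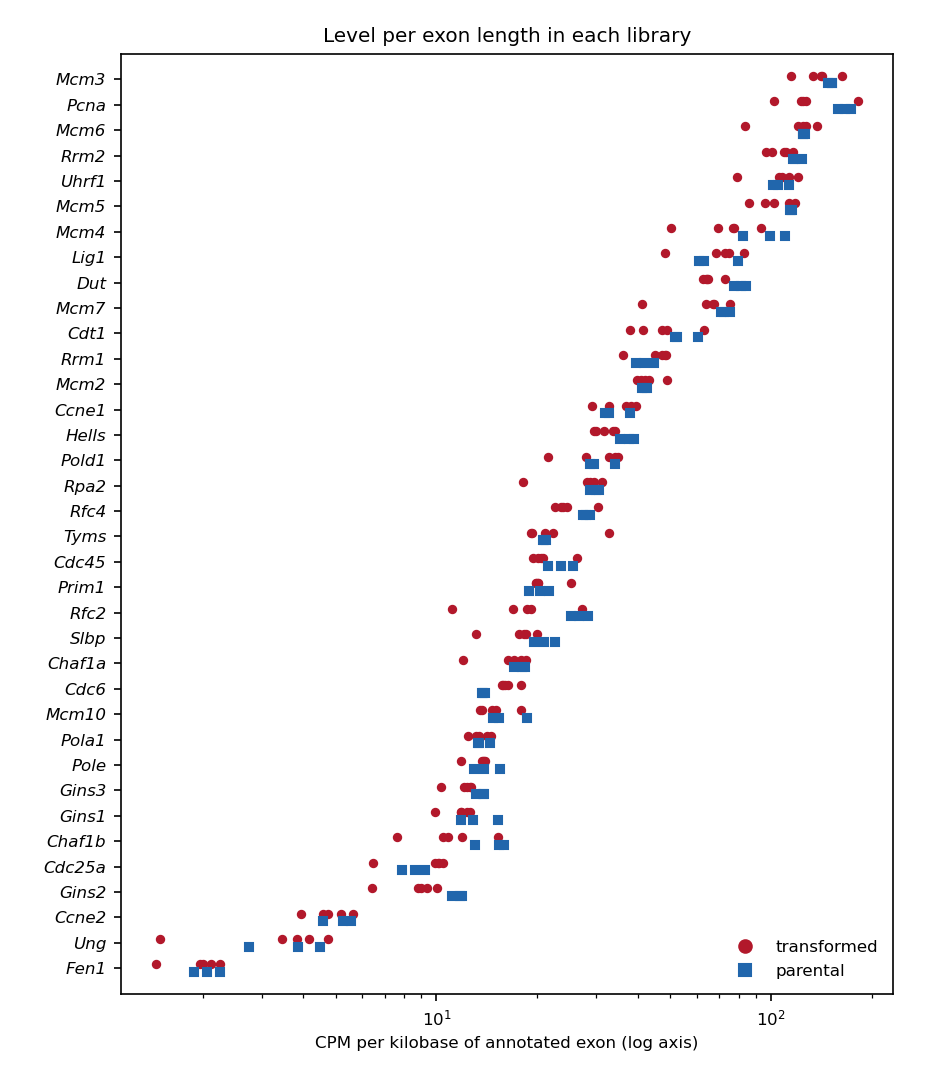
CPM per kilobase of annotated exon (log axis) for each gene, ordered by the transformed mean, with circles for the 5 transformed libraries and squares for the 3 parental ones. Mcm3, Pcna and Mcm6 stand at the top and Ung and Fen1 at the bottom in both groups, and the groups overlap for most genes.

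E2F-type motifs were found in a larger share of these genes' promoters than of all promoters. RefSeq promoter windows (build GRCm38.p6) were available for 30 of the 36 genes, and the 250 bases before each start were searched on both strands. At least 1 of TTTCCCGC, TTTGGCGC and TTTCGCGC, which can overlap each other, occurred in 8 of the 30 (26.7%), against 1.59% of 27018 promoters. These 8 were Mcm5, Mcm6, Mcm7, Cdc6, Gins3, Pola1, Hells and Cdc25a. The matches of Mcm7, Gins3 and Hells lie within annotated exons. CCAAT, the NF-Y motif, occurred in 18 of the 30 (60%), against 34.5% of all promoters. CACGTG occurred in 6.67% against 6.05%, and TTTGAA in 13.3% against 16.3%. The stretches shown lie free of annotated exons and let a helicase pair with E2F matches be read beside the loader Cdc6 and beside Ccne1, where none of the motifs was found. They are reference sequence, not that of Ba/F3 cells, and capitals mark E2F-type and CCAAT matches on either strand. Mcm6 lies at chr1:128359706-128359955 (minus strand), Mcm5 at chr8:75109259-75109508 (plus strand), Cdc6 at chr11:98907982-98908150 (plus strand) and Ccne1 at chr7:38107535-38107740 (minus strand). The Cdc6 stretch lies before the RefSeq start but inside the gene as annotated for the counts, which begins at 98907801.
Mcm6: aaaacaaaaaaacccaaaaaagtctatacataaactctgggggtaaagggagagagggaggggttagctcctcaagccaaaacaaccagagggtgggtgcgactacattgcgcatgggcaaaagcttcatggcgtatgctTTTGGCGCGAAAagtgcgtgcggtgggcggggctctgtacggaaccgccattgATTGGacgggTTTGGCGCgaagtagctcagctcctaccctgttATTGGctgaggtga
Mcm5: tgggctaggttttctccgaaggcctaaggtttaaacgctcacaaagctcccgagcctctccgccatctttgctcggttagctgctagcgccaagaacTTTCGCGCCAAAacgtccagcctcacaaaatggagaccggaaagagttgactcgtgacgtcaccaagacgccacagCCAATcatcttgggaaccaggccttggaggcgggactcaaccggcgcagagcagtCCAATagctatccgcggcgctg
Cdc6: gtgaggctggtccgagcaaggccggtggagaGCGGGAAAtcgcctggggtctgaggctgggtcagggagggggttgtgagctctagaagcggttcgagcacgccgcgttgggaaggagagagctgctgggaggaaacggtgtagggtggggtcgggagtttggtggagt
Ccne1: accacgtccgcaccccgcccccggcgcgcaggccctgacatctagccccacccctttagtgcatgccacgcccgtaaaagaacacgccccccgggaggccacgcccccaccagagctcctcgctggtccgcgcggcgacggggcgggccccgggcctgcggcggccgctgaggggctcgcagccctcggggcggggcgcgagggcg
Mcm6 held 3 E2F-type matches, of which 2 overlap in a single run, Mcm5 held 2 that also overlap in a single run, and Cdc6 held 1. Mcm4, Gins1, Gins2, Pole, Rfc2 and Ccne2 had no entry in the table. A match is a string of letters and was not tested as a site. Of the 8 genes with a match, Cdc6 (log2 fold change 0.24) and Cdc25a (0.13) had positive signs and the others ran from -0.23 in Hells to -0.02 in Pola1.

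The helicase genes, which encode the ring that unwinds DNA, were lowest in transformed 7 for 5 of 6. Mcm4, on chromosome 16, had 336, 276, 249, 181 and 278 CPM in transformed 4, 5, 6, 7 and 8, and 297, 357 and 396 CPM in parental 1, 2 and 3. Transformed 4 lay inside the parental range and the other 4 transformed libraries below it. The log2 fold change was -0.41 (SE 0.18, edgeR adjusted p = 0.225). It was -0.31 within lane 6 and -0.49 within lane 7, and other genes of chromosome 16 had a median of -0.14. Mcm7 had 334, 299, 282, 182 and 297 CPM in transformed 4 to 8, and 334, 314 and 321 CPM in parental 1 to 3. Transformed 4 was level with the highest parental library and the other 4 were below all parental ones (log2 fold change -0.21, SE 0.17, edgeR adjusted p = 0.499). Mcm5 had 472, 450.5, 382, 344 and 407 CPM in transformed 4 to 8, and 463, 459 and 454 CPM in parental 1 to 3 (log2 fold change -0.16, SE 0.11, edgeR adjusted p = 0.430). Transformed 4 was above the narrow parental band and the other 4 were below it.

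Mcm3 likewise had transformed 4 above the parental libraries and the other 4 below, with 610.0, 531, 503, 430.4 and 532 CPM in transformed 4 to 8, and 572, 555 and 569.9 CPM in parental 1 to 3 (log2 fold change -0.12, SE 0.11). Mcm6 had 642, 583, 560.2, 389 and 595.5 CPM in transformed 4 to 8, and 581, 582 and 589 CPM in parental 1 to 3 (log2 fold change -0.08, SE 0.15). For Mcm6 transformed 4 and 8 were above the parental band and transformed 6 and 7 below it, and without transformed 7 the log2 fold change was 0.03. Mcm2 had 340.2, 299, 277, 284 and 292 CPM in transformed 4 to 8, and 286, 296 and 293 CPM in parental 1 to 3, with overlapping groups and a log2 fold change of 0.03 (95% interval -0.16 to 0.23). Adjusted p in edgeR was 0.566 for Mcm3, 0.805 for Mcm6 and 0.855 for Mcm2.

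Among genes that load and start the helicase, 6 of 7 had negative signs and Cdc6 a positive one. Cdc6, the ATPase that recruits the ring to origins, had 83.7, 85.3, 82.8, 93.5 and 82.1 CPM in transformed 4 to 8, and 73.1, 72.2 and 71.8 CPM in parental 1 to 3. Every transformed library was above every parental one. The log2 fold change was 0.24 (SE 0.077, edgeR adjusted p = 0.118), with 0.22 within lane 6 and 0.26 within lane 7. Gins2, a GINS subunit, had 36.9, 41.1, 36.03, 26.3 and 38.3 CPM in transformed 4 to 8, and 48.9, 48.2 and 45.4 CPM in parental 1 to 3. Its groups did not overlap, and transformed 7 was lowest (log2 fold change -0.41, SE 0.14, edgeR adjusted p = 0.128). Within lane 6 the value was -0.24 and within lane 7 it was -0.55. Gins3, another subunit, had 32.8, 33.5, 34.3, 27.9 and 34.2 CPM in transformed 4 to 8, and 37.5, 35.6 and 37.4 CPM in parental 1 to 3. All transformed values were below the parental ones (log2 fold change -0.18, SE 0.096, edgeR adjusted p = 0.309).

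Gins1 had 19.1, 18.0, 18.0, 15.1 and 18.8 CPM in transformed 4 to 8, and 23.2, 19.5 and 17.9 CPM in parental 1 to 3, with groups that overlapped (log2 fold change -0.18, SE 0.12, edgeR adjusted p = 0.414). The licensing factor Cdt1, the initiation factor Mcm10 and the helicase subunit Cdc45 had log2 fold changes of -0.20, -0.12 and -0.13, each with overlapping groups and an edgeR adjusted p between 0.485 (Cdt1) and 0.587 (Mcm10). Cdc45 went against most members in transformed 7, where it had 92.2 CPM, above all other libraries. In the other 4 transformed libraries it lay between 68.3 and 73.2 CPM, under the parental 75.5 to 89.4 CPM.

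Of the 8 polymerase, clamp and single-strand binding genes among the 36, Pcna, Rfc2 and Rfc4 had the lowest fold changes. Outside the 36, the clamp loader genes Rfc1, Rfc3 and Rfc5 had log2 fold changes of -0.088, -0.066 and -0.075. The polymerase genes Pola2 and Pold4, also outside the 36, had -0.42 and -0.92. Pcna, the sliding clamp, had 436, 296, 305, 245 and 299 CPM in transformed 4 to 8, and 417, 399 and 380.0 CPM in parental 1 to 3. Transformed 4 was the highest of all 8 libraries and the other 4 were below every parental one. The log2 fold change was -0.33 (SE 0.16, edgeR adjusted p = 0.266), with -0.41 within lane 6 and -0.29 within lane 7. Rfc2, a subunit of the clamp loader, had 172, 118, 121, 70.04 and 107 CPM in transformed 4 to 8, and 178, 160 and 168 CPM in parental 1 to 3. It had the largest spread of the clamp and polymerase genes, with a 2.45-fold range over transformed libraries against 1.12-fold over parental ones (log2 fold change -0.52, SE 0.23, edgeR adjusted p = 0.220). It was -0.61 within lane 6 and -0.41 within lane 7. Rfc4, another loader subunit, had 37.6, 34.7, 36.5, 46.7 and 36.1 CPM in transformed 4 to 8, and 42.0, 42.8 and 44.1 CPM in parental 1 to 3. Transformed 7, lowest for Rfc2, was highest for Rfc4 (log2 fold change -0.17, SE 0.11, edgeR adjusted p = 0.416).

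The polymerase subunits Pola1, Pold1 and Pole and the primase Prim1 had log2 fold changes of -0.02, -0.03, -0.07 and 0.05, with overlapping groups. All 4 took the other sign under at least 1 other setting. The 95% interval for Pola1 was -0.20 to 0.17. Rpa2, a subunit of the protein that coats single-stranded DNA, had 54.2 CPM in transformed 7 and 84.3 to 93.3 CPM in the other transformed libraries, with 86.3 to 91.7 CPM in parental ones. Fen1 and Lig1, which process and seal Okazaki fragments, had log2 fold changes of -0.08 and 0.03 and changed sign under other settings. Lig1 overlapped between groups, at 206 to 354 CPM in transformed and 260.4 to 341 CPM in parental libraries.

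Among nucleotide enzymes, Dut had the smallest p of the 36 genes. Dut encodes the dUTPase that keeps uracil out of DNA, and had 176, 155, 151, 157 and 155 CPM in transformed 4 to 8, and 197, 203 and 187 CPM in parental 1 to 3. Every transformed library was below every parental one, with transformed 4 nearest to them. The log2 fold change was -0.30 (SE 0.080, edgeR adjusted p = 0.0737), with -0.30 within lane 6 and -0.34 within lane 7. Other genes of its chromosome, chromosome 2, had a median log2 fold change of -0.15, and Pcna lies on the same chromosome. Dut and Cdc6 were at the smallest p the exact permutation test of log2 levels can give (0.0179, unadjusted, 2-sided, 56 assignments). That p needs groups that do not overlap, and 17.8% of all 17733 genes tested had such groups in 1 direction or the other. How many of all genes were at that p was not counted.

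Rrm2, the S-phase subunit of ribonucleotide reductase, had 307, 269, 303, 323 and 278 CPM in transformed 4 to 8, and 322, 326 and 344 CPM in parental 1 to 3. Transformed 7 fell inside the parental range and the other 4 were below it (log2 fold change -0.16, SE 0.086, edgeR adjusted p = 0.309). The partner subunit Rrm1 had 533, 521, 497, 398 and 533 CPM in transformed 4 to 8, and 492, 459 and 434 CPM in parental 1 to 3. Transformed 7 was below all parental ones and the other 4 were above them (log2 fold change 0.11, SE 0.11, edgeR adjusted p = 0.623). Thymidylate synthase, Tyms, had 199.7 CPM in transformed 4, against 116.5 to 136 CPM in the other transformed and 126 to 130 CPM in parental libraries. The uracil glycosylase Ung ranged 3.18-fold over transformed libraries, between 8.14 CPM in transformed 7 and 25.9 CPM in transformed 5, and lay between 15.1 and 24.5 CPM in parental ones.

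**Figure D4:**
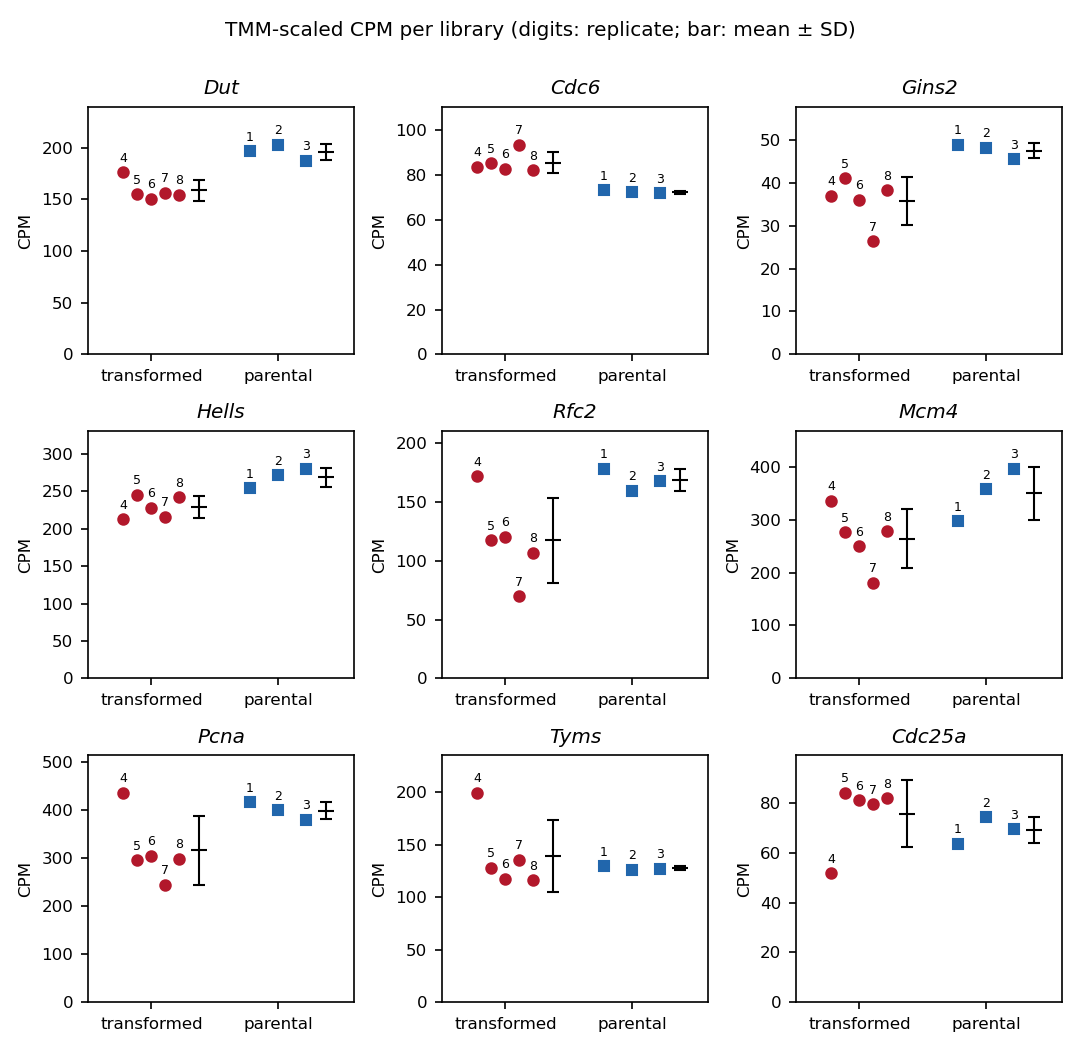
TMM-scaled CPM (linear axes that start at 0) of 9 genes in the 5 transformed libraries (circles, left) and 3 parental libraries (squares, right), where bars show mean ± SD. Dut, Cdc6, Gins2 and Hells do not overlap between groups, while for Rfc2 transformed 4 sits at the parental level and for Pcna just above it. Tyms is high and Cdc25a low in transformed 4.

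The 5 genes for chromatin and histone supply among the 36 all had negative signs, with a median log2 fold change of -0.23. Outside the 36, the signs of histone chaperone genes were mixed. Supt16 (0.21) and Asf1a (0.095) were positive, and Asf1b (-0.25), Ssrp1 (-0.089) and Nasp (-0.0029) negative. Hells, a chromatin remodeller needed for DNA methylation, had 213, 245, 228, 216 and 242 CPM in transformed 4 to 8, and 255, 271 and 280.4 CPM in parental 1 to 3. The groups did not overlap (log2 fold change -0.23, SE 0.083, edgeR adjusted p = 0.149), and the value was -0.12 within lane 6 and -0.31 within lane 7. Hells lies on chromosome 19, whose other genes had a median of -0.34, and relative to that median Hells stood at 0.11. Chaf1b, a subunit of the histone chaperone CAF-1, had 71.6, 55.9, 48.8, 35.6 and 50.7 CPM in transformed 4 to 8, and 61.1, 74.6 and 72.1 CPM in parental 1 to 3. All transformed libraries but transformed 4 lay under all parental ones (log2 fold change -0.40, SE 0.19, edgeR adjusted p = 0.262). Slbp, which binds the stem-loop of histone RNA, had 121, 107, 111, 80.0 and 113 CPM in transformed 4 to 8, and 119, 127 and 137 CPM in parental 1 to 3, and transformed 4 was again inside the parental range (log2 fold change -0.26, SE 0.13, edgeR adjusted p = 0.271). Chaf1a and the hemimethylation reader Uhrf1 had log2 fold changes of -0.12 and -0.02 with overlapping groups, and both took a positive sign within lane 6.

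Of the 3 G1/S regulators edgeR called none with all libraries, and Ccne1 and Cdc25a as higher within lane 6. Cdc25a, the phosphatase that activates the cyclin E kinase, had 51.7, 84.0, 81.0, 79.3 and 81.7 CPM in transformed 4 to 8, and 63.5, 74.3 and 69.4 CPM in parental 1 to 3. Transformed 4 was the lowest of the 8 libraries and the other 4 transformed ones were the highest. The log2 fold change over all libraries was 0.13 (SE 0.16, edgeR adjusted p = 0.679), and it was 0.33 within lane 6, which lacks transformed 4, and -0.08 within lane 7. Ccne1, one of the pair of cyclin E genes, had 87.1, 105, 98.2, 77.4 and 102 CPM in transformed 4 to 8, and 87.5, 101 and 84.8 CPM in parental 1 to 3. Its log2 fold change was 0.28 within lane 6 and -0.21 within lane 7. Ccne2, the other cyclin E gene, had 13.8, 16.0, 19.7, 18.2 and 16.6 CPM in transformed 4 to 8, and 16.0, 18.4 and 19.4 CPM in parental 1 to 3. Both overlapped between groups, with log2 fold changes of 0.04 (SE 0.12, edgeR adjusted p = 0.871) and -0.09 (SE 0.13, edgeR adjusted p = 0.744).

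In all, 4 genes (Dut, Gins2, Gins3 and Hells) were lower in every transformed library than in any parental one and 1 (Cdc6) was higher, out of 36. Over all genes tested 9.69% were lower and 8.07% higher in that sense.

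The number of replication genes called changed with the libraries in the fit. Without transformed 4, edgeR called 4 of the 36 lower (Dut, Pcna, Rfc2 and Chaf1b, 11.1%), where it called 9.26% of all genes lower. Without transformed 7 it called Gins2 alone, as lower (2.78%, against 4.76% of all genes lower). Without both, 11 were lower (Cdc45, Cdt1, Chaf1b, Dut, Gins2, Mcm4, Pcna, Rfc2, Rfc4, Rrm2 and Slbp, 30.6%, against 16.1% of all genes lower) and 2 higher (Cdc25a and Cdc6, 5.56%, against 12.8% of all genes higher). These 2 libraries were left out because earlier results of these data showed them to stand apart, so the counts without them describe the other 3 transformed libraries. In that setting Pcna had a log2 fold change of -0.41, Rfc2 -0.55 and Dut -0.35. The SE for Rfc2 was 0.073 there and 0.23 with all libraries. The libraries left out were chosen from these same data, so calls in that setting are not separate evidence of a difference between groups.

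The library names give a sequencing lane. Lane 6 holds 2 transformed libraries (5 and 8) and 2 parental ones (1 and 3), and edgeR called Dut, Pcna and Rfc2 lower there (8.33%, against 10.8% of all genes lower) and Ccne1 and Cdc25a higher (5.56%, against 9.6% of all genes higher). Lane 7 holds 3 transformed libraries (4, 6 and 7) and 1 parental one (2), which was taken to vary like the others, and no gene of the table passed in edgeR (0%). There 2.72% of all genes and 0 of the 36 had an unadjusted p under 0.05. A fit that added lane as a term called 0 of the 36 and 0.53% of all genes. The sign of the median stayed negative throughout, at -0.10 in lane 6, -0.13 in lane 7 and -0.11 with the covariate. Subtracting the median of the other genes on each gene's chromosome gave -0.10.

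**Figure D5:**
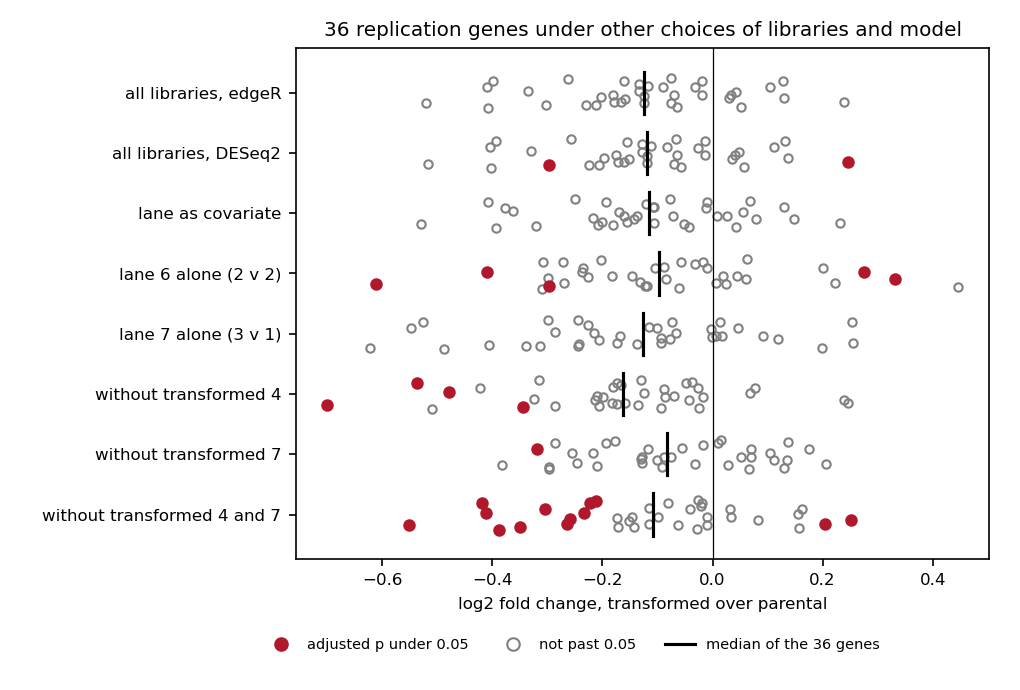
Log2 fold change, transformed over parental (horizontal axis), of the 36 genes under 8 choices of libraries and model (rows), with red for adjusted p under 0.05 and a bar for the median. No gene is red with all libraries in edgeR, while 13 are red without transformed 4 and 7. The median stays left of 0 in each row.

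Other genes of the replication apparatus were read in the same fit. Of 57 other replication genes, all tested, 36 had negative signs with a median log2 fold change of -0.07, and edgeR called 1 lower and 0 higher. That gene, Pold4, the small subunit of polymerase delta, had 22.2, 18.3, 20.0, 22.1 and 20.1 CPM in transformed 4 to 8, and 44.0, 35.5 and 37.0 CPM in parental 1 to 3. It fell in all transformed libraries (log2 fold change -0.92, SE 0.11, edgeR adjusted p = 0.00758), and it lies on chromosome 19, whose genes had a median of -0.34. It was called with each library left out in turn, with an edgeR adjusted p of 0.00322 to 0.04998. Next by p came Pold2, the subunit that holds polymerase delta together, at 101 ± 7.50 CPM in transformed (SD, n = 5) and 75.1 ± 7.41 CPM in parental cells (SD, n = 3), with a log2 fold change of 0.43 (edgeR adjusted p = 0.0538). Gins4, the remaining GINS subunit, had 49.6 ± 4.76 CPM in transformed (SD, n = 5) and 64.9 ± 1.56 CPM in parental cells (SD, n = 3), a log2 fold change of -0.39 (edgeR adjusted p = 0.0619). All 4 GINS genes thus had negative signs and none passed. Gins2, Gins3 and Gins4 lie on chromosome 8, whose other genes had a median of -0.09, and Gins1 on chromosome 2, with -0.15. Relative to those medians Gins1 stood at -0.03, Gins2 at -0.32 and Gins3 at -0.09.

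Genes of the mitosis list mostly act after replication is complete. All 34 had negative signs, with a median log2 fold change of -0.285, and edgeR called 3 lower. These were the spindle motor Kif11 (176 ± 13.1 CPM in transformed and 269.6 ± 9.24 CPM in parental cells, SD, n = 5 and 3, log2 fold change -0.62, edgeR adjusted p = 0.0128), the motor Kif23 (-0.50, edgeR adjusted p = 0.0273) and Incenp, a subunit of the chromosomal passenger complex (-0.49, edgeR adjusted p = 0.0338). Kif11 and Incenp lie on chromosome 19 and Kif23 on chromosome 9. Each of the 3 calls was lost with any 1 parental library left out, and with transformed 6 left out. Kif23 was also lost without transformed 8, and Incenp without transformed 5 or 8, and over these fits the edgeR adjusted p reached 0.1001 for Kif11, 0.173 for Kif23 and 0.191 for Incenp. In 17 of the 34 every transformed library was below every parental one. Over all genes tested 2.1% were called lower in edgeR and 9.69% were lower without overlap. The transcription factor E2f1, an activator of many replication genes, was looked at after its values were known. It had 26.1 ± 3.81 CPM in transformed (SD, n = 5) and 40.2 ± 1.12 CPM in parental cells (SD, n = 3), and it fell (log2 fold change -0.62, SE 0.12, edgeR adjusted p = 0.0368). This call too was lost without any 1 parental library and without transformed 5, 6 or 8, with an edgeR adjusted p of up to 0.173. The gene lies on chromosome 2, whose other genes had a median of -0.15.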

How the data were processed

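The deposited file gives raw counts for 8 libraries, which the authors had not normalised. The submitters' processing notes name featureCounts 1.5.3, STAR 2.5.3a and, as builds, GRCm38.p5 and mm10. The sources used here do not state strandedness, the treatment of multi-mapped reads or the annotation release. Symbols, coordinates and exon lengths came from GENCODE M21 on GRCm38. No ID match was found for 105 of 53465 genes, 54 of them with counts.

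The groups are 5 transformed and 3 parental libraries. After edgeR's filterByExpr, 17733 genes entered its robust quasi-likelihood test with TMM scaling (edgeR 4.0.16, R 4.3.3), and p-values were adjusted over all of them by Benjamini-Hochberg, with a threshold of 0.05. CPM is scaled by TMM, and the common biological coefficient of variation was 0.230. Log2 levels per library add 0.5 CPM. Intervals cover the spread between libraries. The procedure was tested on simulated data.

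Alternatives were DESeq2 1.42.0, limma-voom (limma 3.58.1), RLE factors, no filter, lane terms, left-out libraries and chromosome centring. Genes with values in every library were the 12 smallest p in edgeR, Mcm2 to Mcm7, Pcna, Rrm1, Rrm2, Ccne1 and Ccne2, and others given so were chosen after their values were seen. The promoters of Dut, Pcna and Gins2, which the naming rule also listed, had no exon-free stretch of 100 bases or no entry, and Mcm6 was added after its matches were seen. The members and lists were chosen with earlier results of these data known.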

Additional observations from a re-analysis of the deposited data

Results flagged for a closer look

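Among the 5 transformed libraries, 12 of the 36 replication genes had a library whose gap to its nearest neighbour took up more of the whole range than Dixon's 95% value allows. That is 33.3% of the 36, where 2668 of all 17733 genes tested had such a library. Chance flags about 1 group in 20, and the genes share their libraries.

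Transformed 7 was set apart as low for Gins1 (15.1 CPM), Gins3 (27.9 CPM), Rpa2 (54.2 CPM) and Rrm1 (398 CPM), and as high for Cdc6 (93.5 CPM), Cdc45 (92.2 CPM) and Rfc4 (46.7 CPM). Transformed 4 was set apart as high for Prim1 (97.9 CPM), Tyms (199.7 CPM, next value 136 CPM) and Dut (176 CPM), and as low for Cdc25a (51.7 CPM, next value 79.3 CPM). Transformed 8 was low for Pole (132 CPM). The mean over the 36 genes was not set apart in this sense.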

How the results depend on the processing

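The count of replication genes called rested on the libraries used. Against 0 lower and 0 higher, DESeq2 gave 1 and 1, lane 6 gave 3 and 2, leaving out transformed 4 and 7 gave 11 and 2, and leaving out 1 library gave 0 to 4 lower and 0 higher. Over all genes, 372 were lower and 161 higher. DESeq2 gave 1001 and 850, the lane covariate 79 and 15, lane 6 1883 and 1682, lane 7 0 and 0 (507 at an unadjusted edgeR p under 0.05), and no transformed 4 and 7 gave 2804 and 2238. Leaving out 1 library gave 21 (parental 3) to 1628 (transformed 4) lower and 3 (parental 2) to 1100 (transformed 4) higher. No paired analysis was possible because the groups share no replicate number.

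The median of the 36 genes stayed negative, at -0.16 to -0.08 over all alternatives. Of the 36 genes, 22 kept their sign in all 16 refits, and 14 did not. Subtracting the chromosome median turned the sign of 8 genes, of which 4 were among the 22, Mcm10 (0.0286), Cdc45 (0.0077), Rrm1 (-0.0666) and Hells (0.1105), and so 18 kept their sign throughout. The other 4 were Mcm2 (-0.0148), Fen1 (0.2658), Lig1 (-0.142) and Ccne1 (-0.1297). In lane 6 the sign turned for Mcm6 (0.0244), Prim1 (-0.0607), Fen1 (0.0628), Tyms (-0.0578), Ung (0.4457), Chaf1a (0.0066) and Uhrf1 (0.0184). In lane 7 the sign turned for Pola1 (0.0145), Pole (0.0923), Uhrf1 (0.0071), Ccne1 (-0.2147) and Cdc25a (-0.0777). With lane as a term the sign turned for Uhrf1 (0.0081). Without transformed 4 and 7 the sign turned for Mcm2 (-0.0105), Prim1 (-0.0278), Pold1 (0.0312), Tyms (-0.0813), Ung (0.1564) and Uhrf1 (0.0328). With 1 library left out in turn, values spanned 0 for 12 genes, at -0.0176 to 0.0659 for Mcm2, -0.1348 to 0.0282 for Mcm6, -0.0486 to 0.0285 for Pola1, -0.024 to 0.1076 for Prim1, -0.0889 to 0.0693 for Pold1, -0.1203 to 0.0115 for Pole, -0.1308 to 0.0147 for Fen1, -0.0425 to 0.1681 for Lig1, -0.037 to 0.1875 for Tyms, -0.2306 to 0.1299 for Ung, -0.0708 to 0.0691 for Uhrf1 and -0.0012 to 0.1324 for Ccne1. The cause was not tested. All of these genes missed the threshold in edgeR with all libraries.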
